A study of Mus musculus with 22 samples.

Results

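Skeletal muscle contractile and metabolic genes were followed in mammary tissue from 22 mice. The set held 42 genes chosen by symbol, of 52526 distinct gene symbols in the deposited tables, and all 42 were found. By the role of the protein, 10 belong to the thick filament, 9 to the thin filament, 11 to the scaffold that aligns the filaments, 6 to calcium handling and 6 to energy supply. By fiber type, 13 are isoforms typical of fast fibers, 7 are isoforms typical of slow fibers, and 22 are used by both. No measured value entered the choice of the members, although earlier results of these data were known when the set was proposed.

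The mice were females of the inbred C57BL/6J strain, 7 to 8 weeks of age. All received EO771 cells, a mammary cancer line of the same strain that here carried firefly luciferase, in a mammary fat pad on the left side, and the tissue was collected 24 hours later. For 2 weeks before engraftment the mice had either a running wheel or, as sedentary controls, only its hub. Liposomes filled with PBS, or with clodronate, which is toxic to the phagocytes that take liposomes up, were given 24 hours before engraftment and again at engraftment. Each PBS group had 6 mice and each clodronate group had 5. The labels describe the sample as mammary tissue with engrafted cells and name no muscle.

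Skeletal muscle shortens when myosin heads of the thick filament pull on actin of the thin filament. Calcium, released from the sarcoplasmic reticulum through the ryanodine receptor, binds troponin C on the thin filament and thereby lets tropomyosin move away from the myosin binding sites. Fast fibers and slow fibers carry different isoforms of myosin, of the myosin light chains and of all 3 troponin subunits, so that the isoforms present show which fibers contributed RNA. The mammary gland is a skin appendage in a fat pad, with the cutaneous muscle and the body wall close by.

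The libraries read the 3′ ends of transcripts (QuantSeq), so that a transcript gives about 1 read whatever its length, and levels can be set side by side between genes per transcript. Values were CPM, reads of a gene scaled to the size of the library, with everything below 1 raised to 1, here called the floor. Depth was 13256467 to 20484578 reads per library, with a median of 16293026, so that the floor stands for 13 to 20 reads or fewer, by library. Markers of a mammary fat pad were present. Adipoq, made by adipocytes, lay between 865 and 2656 CPM in every mouse, and the epithelial gene Epcam between 34.4 and 111 CPM. The milk protein genes Wap and Csn2 were at the floor in all 22 mice.

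The promoters of 5 members are printed. Tnnc2 and Tnnc1 are a pair of fast and slow isoforms compared below, and Myh4 and Myh1 are fast heavy chains compared with each other. Acta1 is the gene whose level the other members are set against. Each printed promoter is the 250 bases before a RefSeq transcription start in GRCm38.p6, written 5′ to 3′ on the strand of the gene. Matches to 3 muscle regulatory motifs are in capitals. Acta1, skeletal muscle actin, had its window at chr8:123894776-123895025 on the minus strand. Tnnc2, the fast skeletal troponin C, had its window at chr2:164779735-164779984 on the minus strand, and that of Tnnc1, the troponin C of slow fibers and heart, was chr14:31208062-31208311 on the plus strand. Myh4, the myosin heavy chain of the fastest (type 2B) fibers, had its window at chr11:67237562-67237811 on the plus strand, and Myh1, the heavy chain of type 2X fibers, at chr11:67199852-67200101 on the plus strand. The GENCODE M21 annotation begins Tnnc2 at 164779967 and Myh1 at 67200052. By that annotation most of the Tnnc2 window and the end of the Myh1 window lie inside the genes.
Acta1: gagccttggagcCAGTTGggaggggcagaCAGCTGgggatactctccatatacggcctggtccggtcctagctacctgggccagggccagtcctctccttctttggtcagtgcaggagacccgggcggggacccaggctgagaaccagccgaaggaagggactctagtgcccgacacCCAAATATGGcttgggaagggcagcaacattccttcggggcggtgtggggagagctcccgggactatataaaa
Tnnc2: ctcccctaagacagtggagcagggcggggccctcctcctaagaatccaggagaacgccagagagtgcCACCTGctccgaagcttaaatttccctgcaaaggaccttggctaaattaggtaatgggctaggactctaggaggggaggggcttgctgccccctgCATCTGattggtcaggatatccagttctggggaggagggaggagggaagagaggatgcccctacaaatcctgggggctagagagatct
Tnnc1: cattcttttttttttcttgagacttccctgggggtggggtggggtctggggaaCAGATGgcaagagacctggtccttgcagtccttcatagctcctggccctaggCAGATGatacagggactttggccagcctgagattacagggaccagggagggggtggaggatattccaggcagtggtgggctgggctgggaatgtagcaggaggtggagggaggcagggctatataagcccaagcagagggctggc
Myh4: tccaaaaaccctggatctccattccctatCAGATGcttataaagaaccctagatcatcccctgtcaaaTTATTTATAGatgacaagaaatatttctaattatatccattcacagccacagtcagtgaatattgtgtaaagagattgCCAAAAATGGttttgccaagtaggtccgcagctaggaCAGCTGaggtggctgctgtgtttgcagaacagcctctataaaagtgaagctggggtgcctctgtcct
Myh1: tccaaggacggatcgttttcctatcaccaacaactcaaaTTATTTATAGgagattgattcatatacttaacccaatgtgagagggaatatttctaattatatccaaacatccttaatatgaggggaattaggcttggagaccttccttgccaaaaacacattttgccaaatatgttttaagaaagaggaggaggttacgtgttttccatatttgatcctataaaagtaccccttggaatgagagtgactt
Capitals mark the E-box CANNTG bound by MyoD and its relatives, the MEF2 motif and the CArG box bound by serum response factor, searched on both strands. Acta1 held 2 E-boxes and a CArG box. Both troponin C promoters held 2 E-boxes and neither of the other motifs. Myh4 held 2 E-boxes, a MEF2 match and a CArG box, whereas Myh1 held the MEF2 match alone, with the same 10 letters as in Myh4. No capitalised matches overlapped each other, but the MEF2 match of Myh4 and Myh1 contains TATAAA on the opposite strand. Promoters were found for 32 of the 42 members. An E-box was present in 26 of these 32, against 66.0% of 27025 promoters of the same length, a MEF2 match in 6 (18.8%, against 3.01%), a CArG box in 4 (12.5%, against 1.4%) and TATAAA in 5 (15.6%, against 13.0%). These shares are a description of letters in a window.

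Muscle transcripts differed between single mice far more than any group average shows. Summed over the 42 genes, with genes at the floor counted as 1, the level ran from 146 CPM in wheel mouse 4 with PBS liposomes to 45761 CPM in control mouse 2 with clodronate liposomes, a 313-fold range. As a share of the library this was 0.0146% to 4.58%. With PBS liposomes the sums were 169 to 6105 CPM in control mice, with a median of 949.6, and 146 to 751 CPM in wheel mice, with a median of 356. With clodronate liposomes the 5 control mice had 192, 45761, 4943, 308 and 3155 CPM. The 5 wheel mice had 1029, 22247, 1807, 148 and 151 CPM. The lowest sums of the 4 groups thus lay between 146 and 192 CPM, while the highest sums ran from 751 to 45761 CPM. In the mice with 146 and 192 CPM, only 20 of the 42 members were above the floor. Tpm2 alone gave 40.2% and 34.2% of these 2 sums. In bulk tissue, fewer muscle fibers and less RNA per fiber cannot be told apart.

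The 2 libraries with the highest sums stood apart for almost the whole set. Control mouse 2 with clodronate had the highest value for 41 of 42 members and wheel mouse 2 with clodronate the second highest for the same number. The order was swapped for Myh2, the heavy chain of type 2A fibers, at 127 and 281 CPM. Between 20 and 42 members were above the floor in a mouse, 17 were above it in all mice, and 25 were at it in at least 1 mouse.

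**Figure D1:**
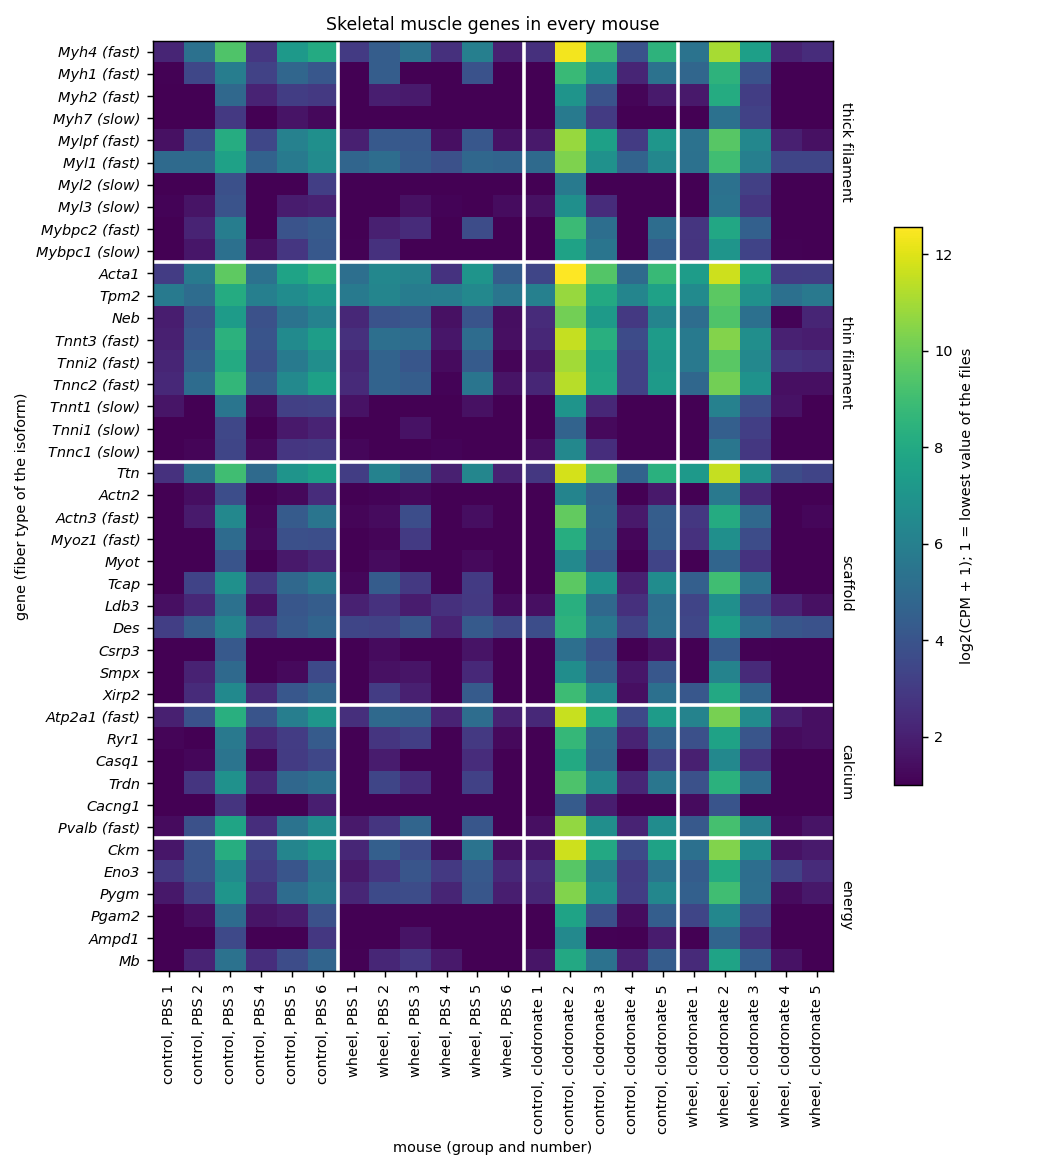
Heat map of log2(CPM + 1) for the 42 muscle genes (rows, by role) in the 22 mice (columns, by group, with white lines between groups). Dark cells are values at or near the floor. Columns differ more than groups do, with the brightest column, control mouse 2 with clodronate, summing to 45761 CPM and the darkest to 146 CPM.

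The spread within groups was larger for each member than for the median gene. The standard deviation of log2(CPM + 1) within groups had a median of 2.03 over the 42 members (1.00 to 3.11) against 0.46 over the 15138 genes that were above the floor in at least 5 mice. Myh4 ranked 15, Ckm, the muscle creatine kinase, ranked 22 and Cacng1 ranked 808 among all of these genes by that measure. A wide spread was not particular to the members, since the 4 skin genes named below summed to 19.9 to 8591 CPM over the mice. Over the 22 mice, log2(CPM + 1) of Acta1 followed that of the other 41 members with Pearson's r of 0.755 (Myl2) to 0.987 (Atp2a1, the fast calcium pump), and Spearman's rho of 0.587 (Tnnc1) to 0.982 (Mylpf). The medians were 0.924 and 0.898. Left without the 2 libraries with the highest sums, r was 0.518 to 0.979 with a median of 0.876. These values describe points that share library and depth, so no p is given. Slow isoforms were often at the floor, and the effect of the floor on these values was not tested.

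Of the thin filament genes Acta1 reached the highest level. Among control mice with PBS liposomes it had a lowest value of 7.23 CPM, a median of 129.7 CPM and a highest of 836 CPM, and among wheel mice with PBS liposomes 5.46, 54.1 and 127 CPM. With clodronate liposomes the control mice had 9.57, 6082, 721, 31.0 and 450.4 CPM and the wheel mice 168, 3329.6, 224, 7.35 and 7.67 CPM. The lowest values of all 4 groups lay within 5.46 to 9.57 CPM, and the groups overlapped at their lower ends. Of the 5 control mice with clodronate, 3 were above the highest wheel mouse with PBS liposomes.

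Fast troponins rose and fell with Acta1 from mouse to mouse. Tnnt3, the fast troponin T that ties the troponin complex to tropomyosin, had a lowest value of 3.065, a median of 54.8 and a highest of 348 CPM in control mice with PBS liposomes and 1.76, 18.9 and 37.0 CPM in wheel mice. With clodronate liposomes it was 3.86, 2994, 309, 11.3 and 160.1 CPM in control mice and 54.3, 1352, 106, 3.22 and 2.82 CPM in wheel mice. The 2 highest values belonged to mouse 2 of each clodronate group. Tnni2, the fast inhibitory subunit, had 3.65, 37.9 and 266 CPM as lowest, median and highest in control mice with PBS liposomes and 1.25, 10.1 and 24.5 CPM in wheel mice. Its clodronate values were 2.39, 2017, 208, 8.78 and 137 CPM in control mice and 50.6, 786, 82.5, 5.53 and 4.635 CPM in wheel mice. For both genes the groups differed mostly at their upper ends, and each group reached down to 4.635 CPM or less. Tnnc2, the calcium-binding subunit of fast fibers, ranged from 1.13 to 2606 CPM, the largest ratio of highest to lowest value among the fast troponins.

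Tpm2 and nebulin behaved differently at the low end. Tpm2, a tropomyosin that smooth muscle also makes, was never below 32.8 CPM and reached 1788 CPM, a 54.6-fold range. Neb, the ruler of the thin filament in skeletal muscle, ran from 1.15 to 1111 CPM, a 962-fold range. In wheel mouse 4 with PBS liposomes, the mouse with the lowest sum, Tpm2 at 58.7 CPM was the highest of the 42 members.

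Myh4 had the highest peak of the thick filament genes, although Myl1, the essential light chain of fast fibers, was above it in 10 of 22 mice. For Myh4, control mice with PBS liposomes had 3.58 CPM as the lowest, 93.4 as the median and 676 as the highest value, and wheel mice 3.23, 13.5 and 62.8 CPM. The clodronate values were 5.08, 5284, 474, 13.97 and 351 CPM in control mice and 41.7, 2152, 184, 3.28 and 4.58 CPM in wheel mice. It was above the floor in all 22 mice, unlike the other 3 heavy chains. Mylpf, the regulatory light chain of fast fibers, had 1.825, 39.2 and 283 CPM as lowest, median and highest in control mice with PBS liposomes and 1.76, 9.86 and 17.97 CPM in wheel mice. With clodronate liposomes it was 2.44, 1775, 192, 7.045 and 135 CPM in control mice and 40.0, 767, 80.1, 3.04 and 1.865 CPM in wheel mice. Mylpf and Myh4 put the mice in nearly the order that Acta1 did, with rho of 0.982 and 0.966. Myl1 was the exception among the myosin genes, with at least 9.70 CPM in every mouse and a 135-fold range up to 1305 CPM. A pseudogene, Mylf-ps, matches 258 bases of the 3′ end of Myl1 at 97% identity or more, so reads of the 2 could be split or lost in counting.

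The type 2 heavy chains did not keep a fixed ratio. Myh4 made up 89.3% of the summed CPM of Myh1, Myh2, Myh4 and Myh7 in control mouse 2 with clodronate, where Myh1 gave 7.63% and Myh2 2.14%. In wheel mouse 2 with clodronate the shares were 76.1%, 12.6% and 9.92%. In control mouse 4 with PBS the level of Myh1, 8.835 CPM, exceeded that of Myh4, 6.03 CPM, a ratio of 1.47. The same ratio was 1.01 in wheel mouse 2 with PBS and 0.651 in wheel mouse 1 with clodronate, against 0.0252 in wheel mouse 3 with PBS, where Myh1 was at the floor and the ratio is thus an upper limit. Krt10, a keratin of differentiated epidermis, was at 864, 1188 and 1157 CPM in the 3 mice with the highest ratios and at 15.3 CPM in wheel mouse 3 with PBS. It also stood at 3950 CPM in control mouse 2 with clodronate, where the ratio was 0.0854, and its part in the ratio was not tested.

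These 3 genes are neighbours on chromosome 11 in GRCm38, in the order Myh2 (67171027 to 67197517), Myh1 (67200052 to 67224575) and Myh4 (67238029 to 67260446), all on the plus strand. Tnni2 (142441808 to 142444410) and Tnnt3 (142498836 to 142516009) are neighbours on chromosome 7.

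Slow isoforms were often at the floor, and the highest values of 6 of the 7 lay between 24.7 and 127 CPM. Myh7, the heavy chain of slow fibers and of the ventricles, was at the floor in 3 of 6 control mice with PBS liposomes, with 1.39, 2.07 and 6.48 CPM in the others, and in all 6 wheel mice. With clodronate liposomes it was 53.9 CPM in control mouse 2, 6.975 in control mouse 3, 39.0 in wheel mouse 2 and 8.385 in wheel mouse 3, and at the floor in the remaining 6 mice. Its 3′ end matches that of the cardiac heavy chain Myh6 over 356 bases at 97% identity or more, and Myh6 was at the floor in all 22 mice. Reads that fit both could have been lost in counting, so that Myh7 and its shares below may be too low. Myl2, the regulatory light chain of the same fibers, was above the floor only in control mice 3 and 6 with PBS liposomes (13.2 and 7.80 CPM), control mouse 2 with clodronate (53.7 CPM) and wheel mice 2 and 3 with clodronate (39.3 and 8.02 CPM). Both genes were thus at the floor in every wheel mouse with PBS liposomes, as were Cacng1, the gamma subunit of the muscle calcium channel, and Pgam2, the muscle phosphoglycerate mutase.

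Slow troponins were above the floor in more mice than Myh7 or Myl2, with 12 mice for Tnnt1, 8 for Tnni1 and 13 for Tnnc1. Tnnt1, the slow troponin T, reached 44.1 CPM in control mice with PBS liposomes (median 5.18, 1 mouse at the floor), while 2 wheel mice had 1.905 and 1.94 CPM and 4 were at the floor. With clodronate liposomes it was 127 CPM in control mouse 2, 3.91 in control mouse 3 and 66.8, 12.8 and 1.94 CPM in wheel mice 2, 3 and 4, with the others at the floor. Tnni1, the slow inhibitory subunit, was 10.0, 3.51 and 2.48 CPM in 3 control mice with PBS liposomes and 1.95 CPM in 1 wheel mouse. Wheel mouse 3 with PBS was thus the only wheel mouse with PBS liposomes in which it was above the floor. The clodronate mice above the floor for Tnni1 were control mice 2 and 3 at 24.7 and 1.465 CPM and wheel mice 2 and 3 at 22.0 and 7.96 CPM.

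Tnnc1 and Myl3, which slow fibers share with the heart, were above the floor in 13 mice each. Tnnc1 had a median of 3.76 and a highest value of 9.63 CPM in control mice with PBS liposomes, and at most 1.29 CPM in wheel mice. With clodronate liposomes it was 1.76, 83.4 and 4.67 CPM in control mice 1, 2 and 3 and 45.3 and 6.38 CPM in wheel mice 2 and 3. Myl3, the essential light chain of slow fibers, had a median of 2.36 and a highest value of 14.4 CPM in control mice with PBS liposomes, and at most 1.88 CPM in wheel mice. Its clodronate values were 1.855, 109 and 4.60 CPM in control mice 1, 2 and 3 and 42.03 and 6.20 CPM in wheel mice 2 and 3. For both genes mouse 2 of each clodronate group was the highest of its group.

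**Figure D2:**
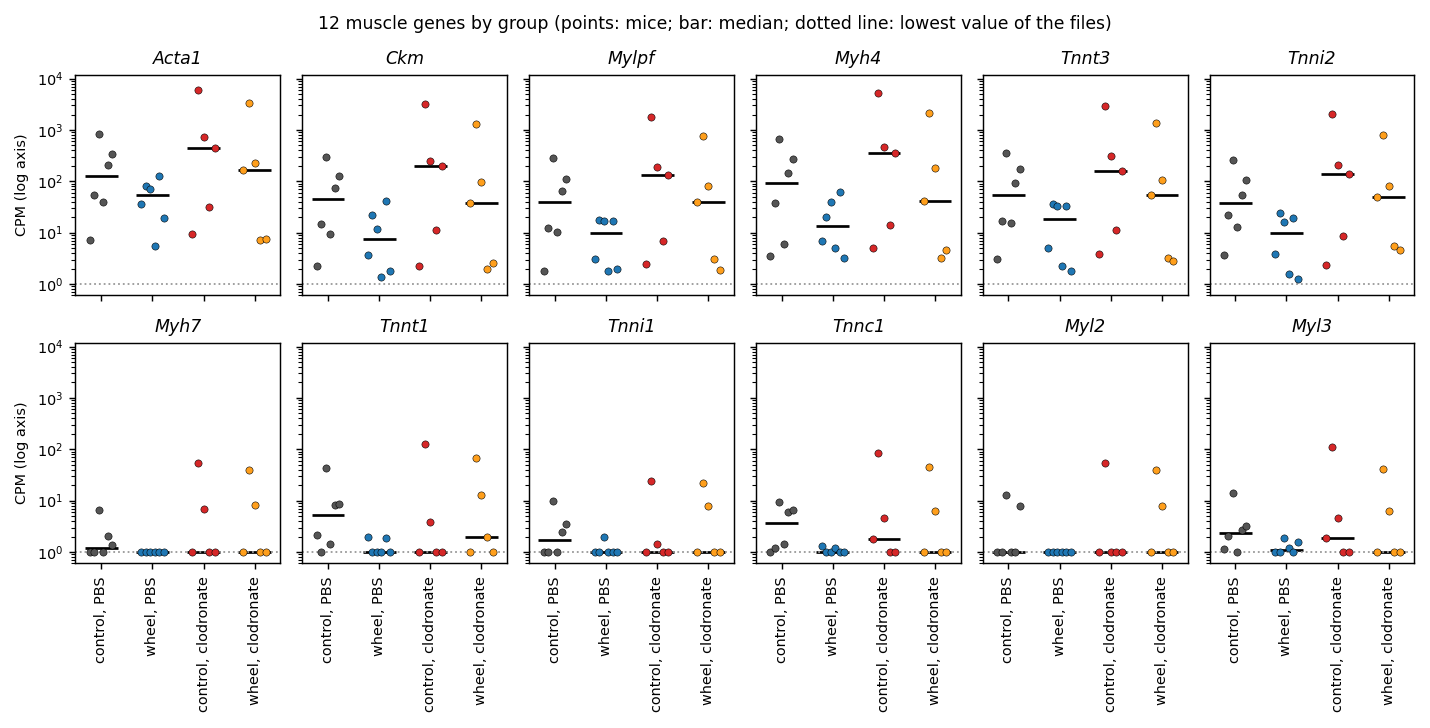
CPM on a log axis of 6 fast or shared genes (top) and 6 slow genes (bottom) in the 4 groups. Points are mice, bars are medians and the dotted line is the floor of 1 CPM. The upper row spans 1.25 to 6082 CPM with overlapping groups, and most points of the lower row sit on the floor.

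Fast isoforms outnumbered slow ones in most libraries where both could be measured. For each of 7 pairs, the slow isoform was expressed as a percent of the reads of both, with a 95% Wilson interval that covers counting error only. Only 5 mice had all 7 pairs above the floor, namely control mice 3 and 6 with PBS liposomes, control mouse 2 with clodronate and wheel mice 2 and 3 with clodronate. In these mice slow Tnnt1 was 11.2%, 4.76%, 4.06%, 4.71% and 10.8% of troponin T reads. Slow Tnni1 was 3.64%, 3.25%, 1.21%, 2.72% and 8.80% of troponin I reads. Slow Myh7 was 0.95%, 0.519%, 1.01%, 1.78% and 4.37% of the reads of Myh4 and Myh7 in the same order of mice. Wheel mouse 3 with clodronate had the highest slow share of these 5 mice for 5 of the 7 pairs. It was second to control mouse 3 with PBS liposomes for Tnnt1 and had the lowest share of the 5 for Mybpc1, at 28.8%. For Myl2 against Mylpf it had 9.10% (7.73 to 10.7), against 2.94% (2.75 to 3.13) in control mouse 2 with clodronate.

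Mice with much muscle RNA did not all have Tnnt1 and Myh7 above the floor. Control mouse 5 with clodronate, whose members summed to 3155 CPM, had Tnnt1 and Myh7 at the floor. Their shares of the counted reads were thus at most 0.609% and 0.278%. Wheel mouse 3 with clodronate, with a lower sum of 1807 CPM, had 10.8% (9.53 to 12.3) and 4.37% (3.71 to 5.14). Control mouse 3 with clodronate, at 4943 CPM, had 1.25% (0.962 to 1.62) Tnnt1, while control mouse 3 with PBS liposomes, at 6105 CPM, had 11.2% (10.5 to 12.1). These mice were picked for their contrast after their values were seen, the intervals cover counting error in single libraries, and no relation of the slow share to the amount of muscle RNA was tested.

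Mybpc1 was the slow isoform that stood out from the other 6. It encodes the slow type of myosin-binding protein C, which fast fibers also contain, and it made up 19.4% to 63.6% of the reads of Mybpc1 and Mybpc2 in the 12 mice with both above the floor, with a median of 38.9%. It exceeded Mybpc2 in 2 of them, wheel mouse 2 with PBS liposomes (5.37 against 3.08 CPM) and control mouse 3 with clodronate (44.0 against 35.3 CPM). For the other pairs the medians over the mice with both above the floor were 8.45% for troponin T (12 mice), 3.44% for troponin I (8 mice), 5.11% for troponin C (13 mice), 6.26% for the essential light chains (13 mice), 4.88% for the regulatory light chains (5 mice) and 1.38% for Myh7 against Myh4 (7 mice). For most pairs, a mouse with few muscle reads tends to enter these figures when its slow share is high, because a slow isoform below the floor has no share. The essential light chains differed, since Myl1 was at least 9.70 CPM in every mouse. For that pair, control mouse 1 with PBS liposomes entered at 3.60%. The highest shares, 40.8% Tnnt1 in control mouse 1 and 51.4% Tnnc1 in wheel mouse 4 with PBS liposomes, rested on 71 and 37 reads.

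**Figure D3:**
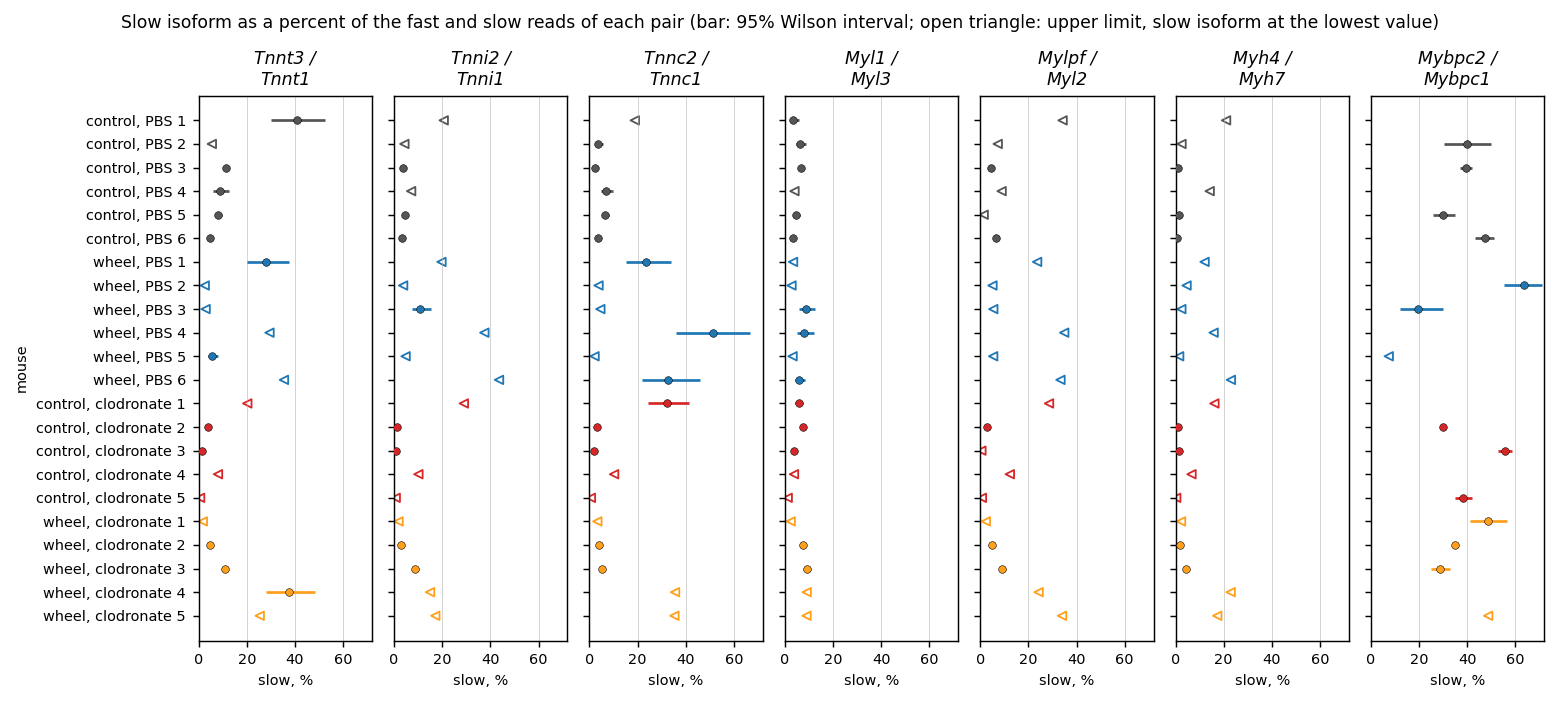
Slow isoform as a percent of the reads of a fast and slow pair (x axis) in each mouse (y axis, colored by group) for 7 pairs. Points with bars are shares with 95% Wilson intervals, open triangles are upper limits where the slow isoform was at the floor, and mice with the fast isoform at the floor are left blank. Shares below 12% prevail in all panels other than Mybpc2 against Mybpc1, where they run from 19.4% to 63.6%.

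Whether wheel running changed the balance of fiber types could not be tested as planned, since no pair had 4 mice with both isoforms above the floor in both groups. With 1 added to each CPM and all mice kept, log2 of the ratio of fast to slow differed between wheel and control mice in 0 of the 14 combinations of pair and liposome at an adjusted p under 0.05 (exact two-sided permutation tests, Benjamini-Hochberg over the 14). The smallest unadjusted p was 0.0823 (exact permutation), for Tnni2 against Tnni1 with PBS liposomes, where the mean log2 ratio was 1.89 in wheel mice and 3.44 in control mice (n = 6 and 6, adjusted p = 0.515). Where the slow isoform is at the floor, this ratio moves with the amount of muscle RNA.

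The scaffold genes differed in how far they were seen outside the mice with much muscle RNA. Titin (Ttn), the spring that spans the sarcomere, ranged from 3.08 to 3624 CPM and desmin (Des), an intermediate filament that smooth muscle also makes, from 3.45 to 352 CPM. Both were above the floor in all mice, as was Ldb3, a protein of the Z-disc, at 1.65 to 318 CPM. Tcap, the titin cap, reached 815 CPM and Actn3, the alpha-actinin of fast fibers, 879.7 CPM, and they were at the floor in 6 and 5 mice. Ttn relative to Acta1 was 0.596 in control mouse 2 and 0.914 in wheel mouse 2 with clodronate. Both its highest and its lowest values lay in mice with few muscle reads. They were 1.63 and 1.24 in wheel mice 4 and 5 with clodronate, and 0.172 and 0.211 in wheel mice 6 and 1 with PBS liposomes. Csrp3, a stress-sensing protein of the Z-disc that slow fibers favour, was at the floor in 14 mice and did not pass 36.2 CPM.

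Of the calcium handling genes, Atp2a1, which pumps calcium back into the sarcoplasmic reticulum of fast fibers, reached 3101 CPM, and Pvalb, a calcium buffer of fast fibers, reached 1672 CPM. Both were above the floor in all 22 mice, with medians of 27.5 and 14.9 CPM. The release channel Ryr1 and its partner Trdn had highest values of 417 and 649 CPM and were at the floor in 3 and 7 mice. Casq1, which stores calcium in the reticulum, reached 259 CPM and was at the floor in 9 mice. Cacng1 was the lowest member at its peak, with 18.9 CPM.

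Energy supply was led by Ckm, which buffers ATP through creatine phosphate. It had 2.26, 44.8 and 297 CPM as lowest, median and highest in control mice with PBS liposomes and 1.38, 7.61 and 41.6 CPM in wheel mice. With clodronate liposomes it was 2.29, 3264, 252, 11.3 and 202 CPM in control mice and 37.3, 1312, 98.3, 2.00 and 2.56 CPM in wheel mice. Wheel mouse 4 with PBS liposomes was the lowest of all mice for Ckm, as it was for Acta1. Pygm, the muscle glycogen phosphorylase, ranged from 1.52 to 1331 CPM and Eno3, the muscle enolase, from 2.44 to 764 CPM, both above the floor in all mice. Mb, the oxygen store myoglobin, which slow and oxidative fibers favour, reached 256 CPM in control mouse 2 and 211 CPM in wheel mouse 2 with clodronate. The ratio between those 2 mice was thus smaller for Mb than for Ckm.

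The first comparison asked whether wheel running changed muscle transcripts in mice that received PBS liposomes. All 42 members had lower means in wheel mice, by a median of 1.31 on the log2(CPM + 1) scale (a median difference of -1.31, with members from -2.46 to -0.38), and none passed the test. The median difference over all 15138 genes was -0.08, and 63.8% of them were lower. The number of members past an adjusted p of 0.05 (limma, Benjamini-Hochberg over all genes tested) was 0, where 0% of all genes passed. At an unadjusted p under 0.05 it was again 0, where 744 of all genes passed (4.91%). The fold change of largest size was that of Tnnc2, at -2.46 ± 1.48 (SE), with an adjusted p of 0.987 by limma. For Acta1 it was -1.35 ± 1.47, for Ckm -1.996 ± 1.52 and for Myh4 -1.94 ± 1.59, so that the standard errors were about as large as the differences. The members rise and fall together from mouse to mouse, so that 42 lower means are not 42 separate observations. Left without control mouse 3, 41 members were lower, 1 was higher and the member median was -0.80.

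The slow isoforms had smaller differences in that comparison on this scale, with most of their values at the floor. They ran from -0.46 ± 0.73 for Myh7 to -1.47 ± 0.96 for Tnnt1. Among the fast isoforms the range was -1.14 ± 0.85 for Myl1 to -2.46 for Tnnc2. A floor limits how far a low gene can fall, and the difference between slow and fast isoforms was tested only through the ratios above.

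With clodronate liposomes the means of 38 members were lower and those of 4 were higher in wheel than in control mice, with a median difference of -0.88. The 4 with higher means were Myh2 (0.01 ± 1.14), Myl2 (0.35 ± 0.86), Tnnt1 (0.23 ± 1.05) and Tnni1 (0.34 ± 0.69), which are 3 of the slow isoforms and the heavy chain of type 2A fibers. The count of members past an adjusted p of 0.05 by limma was 0, against 0.00661% of all genes, and 0 at an unadjusted p under 0.05, against 10.4%. The median hung on single libraries. It was 0.08 without control mouse 2, with 29 members then higher and 13 lower, and -1.88 without wheel mouse 2, with all 42 lower and 5 at an unadjusted p under 0.05, where 2174 of the 15138 genes were. Left without wheel mouse 4 or 5 it was -0.31 or -0.28, and without control mouse 1 or 4 it was -1.62 or -1.55. Left without both mice numbered 2, an alternative added after the data were seen, it was -0.88.

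The effect of wheel running was not shown to differ between the liposomes. The interaction term was positive for 35 members and negative for 7, with a median of 0.58. It passed an adjusted p of 0.05 by limma for 0 members, where 0% of all genes passed, and an unadjusted p under 0.05 for 0 members, where 7.58% did. Over all genes the median was 0.09. Leaving out single mice moved the member median between -0.41 without wheel mouse 2 and 1.67 without control mouse 2, both with clodronate. It was also below 0 without control mouse 1 or 4 with clodronate, at -0.18 or -0.03, and 0.06 without control mouse 3 with PBS liposomes.

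**Figure D4:**
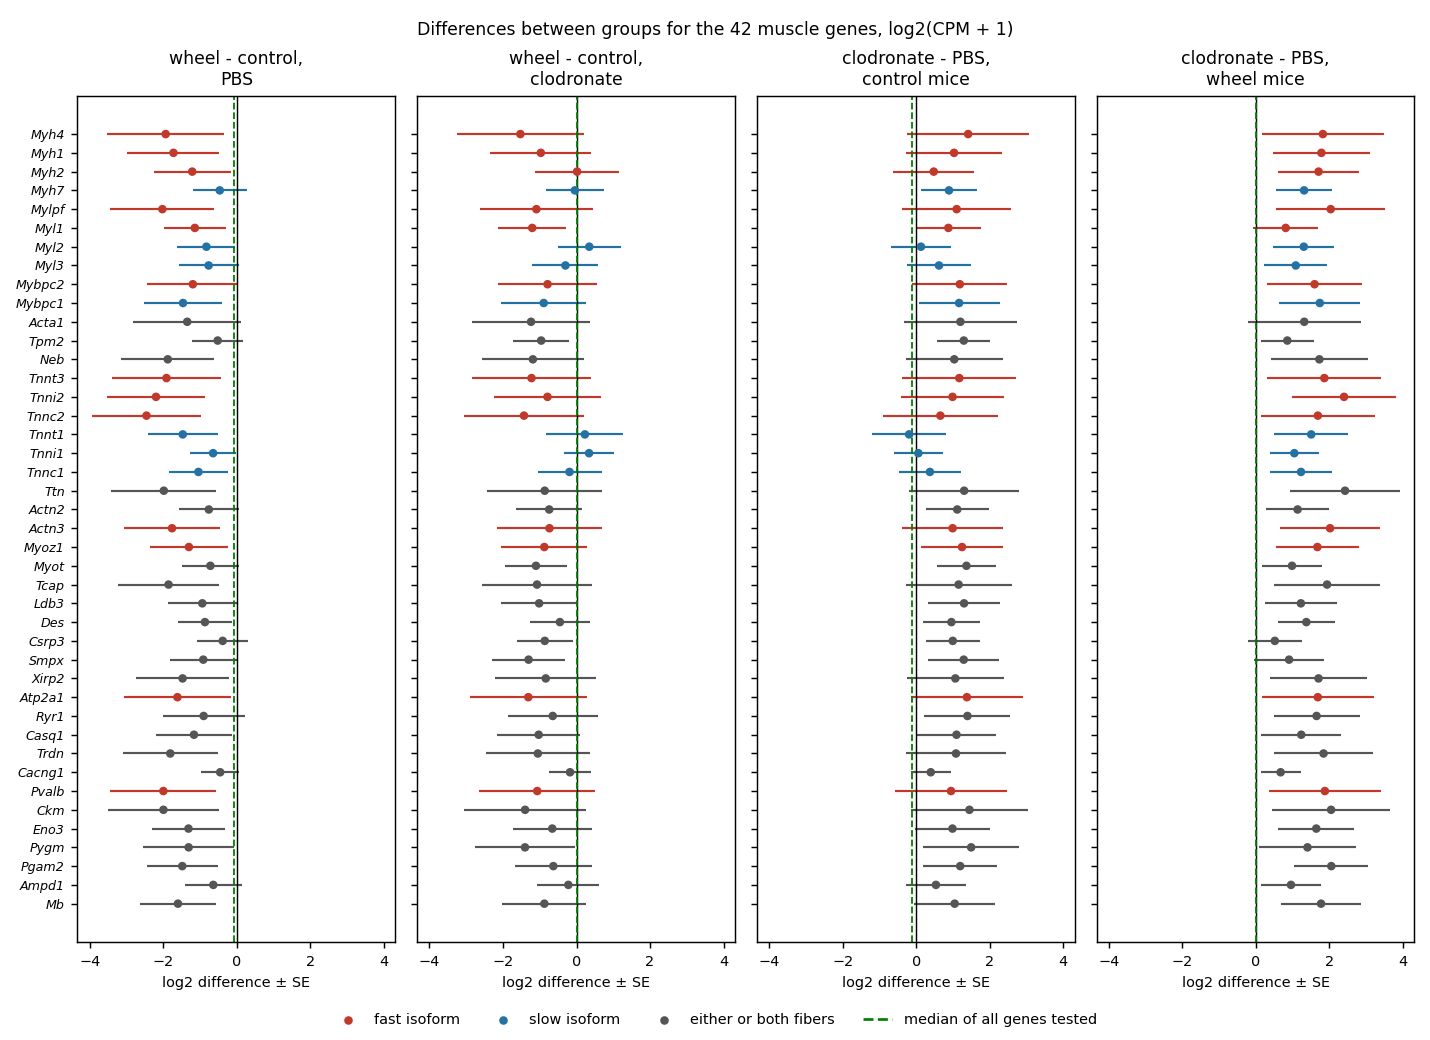
Difference in log2(CPM + 1) with its standard error for each of the 42 muscle genes in 4 comparisons between groups. Red points are fast isoforms, blue are slow and gray are shared, and the dashed line is the median over all genes tested. With PBS liposomes all 42 points lie below 0 for wheel against control mice, and for clodronate against PBS in wheel mice all 42 lie above 0, with none past an adjusted p of 0.05.

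Clodronate against PBS liposomes was compared within each activity group. The 6 macrophage genes, which mark the intended target of clodronate, had median sums of 174 CPM with PBS and 126 CPM with clodronate liposomes in control mice and 162 and 183 CPM in wheel mice, with 0 of 6 past an adjusted p of 0.05 by limma in either comparison and 1 lower at an unadjusted p under 0.05 in control mice. In control mice the means of 41 members were higher with clodronate and that of Tnnt1 was lower (-0.19 ± 1.00), with a median difference of 1.07 against -0.10 over all genes. By limma 0 members passed an adjusted p of 0.05 (0% of all genes) and 0 an unadjusted p under 0.05 (6.99% of all genes). Tpm2 had the smallest p, at a difference of 1.29 ± 0.72 and an adjusted p of 0.745 by limma. Left without control mouse 2 with clodronate the median fell to 0.02, with 23 members higher and 19 lower. It was 0.61 and 1.61 without control mouse 1 or 3 with PBS liposomes, and 1.89 and 1.75 without control mouse 1 or 4 with clodronate.

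In wheel mice the means of all 42 members were higher with clodronate, by a median of 1.64 and by 0.51 (Csrp3) to 2.42 (Ttn), against a median of 0.00 over all genes. By limma 0 members passed an adjusted p of 0.05, against 0.00661% of all genes, and 0 an unadjusted p under 0.05, against 11.6%. Pgam2 came closest, at 2.05 ± 1.01 with an adjusted p of 0.441 by limma. It was at the floor in all 6 wheel mice with PBS liposomes and at 9.71, 80.9 and 10.1 CPM in wheel mice 1, 2 and 3 with clodronate. Left without wheel mouse 2 with clodronate, the member median was 0.54. The 2 activity comparisons and the 2 liposome comparisons share their groups and are not independent of each other.

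Muscle genes outside the set were read from lists of named genes. Of 17 further genes of the filaments, the M-line and the Z-disc, 15 were tested and 0 passed an adjusted p of 0.05 in any of the 5 comparisons, with a median difference of -0.68 for wheel against control mice with PBS liposomes. Myom1, which cross-links the thick filaments, reached 313 CPM in control mouse 2 with clodronate. Of 11 genes of excitation-contraction coupling 10 were tested, and of 11 genes of energy supply 11 were tested, with 0 passing in either list and medians of -0.39 and -0.36 in that comparison. Cox6a2, the muscle form of a cytochrome oxidase subunit, reached 408 CPM in the same mouse. Genes of the neuromuscular junction were low, and the receptor subunits Chrnd and Chrne and the kinase Musk were at the floor in all 22 mice. Of 8 genes of satellite cells and newly formed fibers 1 was tested, and the embryonic heavy chain Myh3, Myf5 and Mymk were at the floor in all mice. Of 9 genes that muscle secretes or that exercise is known to change in muscle, 0 of 9 passed in any comparison, with a median of 0.13 for wheel against control mice with PBS liposomes. Mstn, which restrains muscle growth, reached 23.8 CPM in control mouse 2 with clodronate and was at the floor in 16 mice.

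Among genes outside the set and outside all the lists, those whose level followed the members most closely were also named by rule. Correlations with the mean of the members were taken over the 22 mice after subtraction of group means. The highest among these genes were those of Klhl31 (0.98), Eef1a2 (0.973), Apobec2 (0.971), Pde4dip (0.970) and Cmya5 (0.969). Mylk4, Smtnl1, Hfe2, Txlnb and Hspb6 (0.926) came next. Some listed muscle genes, left out of this ranking, were as close, such as Cox6a2 (0.979) and Myom1 (0.978). All 10 genes of the ranking had their highest value in control mouse 2 with clodronate, for example 160.3 CPM for Klhl31 and 225 CPM for Eef1a2.

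Markers of other tissues were set beside the members. Skin genes and basal keratins moved with them in part. The summed level of Krt10, Krt1, Lor and Krt15 ran from 19.9 to 2322 CPM in control and from 23.3 to 5058 CPM in wheel mice with PBS liposomes, and from 26.5 to 8591 and from 24.2 to 4553 CPM with clodronate liposomes. Their group-centred correlations with the mean of the members were 0.615 to 0.655, with 4 of 4 positive. Their differences had medians of -0.80 and -1.08 for wheel against control mice with PBS and with clodronate liposomes and 1.54 and 1.26 for clodronate against PBS in control and in wheel mice, with 0 of 4 called in any of them. Krt5 and Krt14, keratins of basal cells in epidermis and mammary ducts alike that were listed as mammary epithelium, had correlations of 0.663 and 0.644, while the luminal keratins Krt8 and Krt18 had -0.536 and -0.632. The 8 mammary epithelium genes summed to 2588 and 3528 CPM in control mice 2 and 3 with clodronate, the highest of the 22 mice. Control mouse 2 with clodronate had a skin sum of 7559 CPM and wheel mouse 2 one of 4553 CPM. On the other hand control mouse 5 with PBS liposomes had 24.5 CPM of skin genes beside 1453 CPM of muscle genes, and wheel mouse 5 with PBS liposomes had 5058 CPM beside 751 CPM. The part of skin or of other tissue at the edge of the dissection was not tested.

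Smooth muscle genes mostly ran against the members. Of 9 smooth muscle genes, 7 had negative group-centred correlations with the mean of the members, the lowest being -0.586 for Tagln and -0.521 for Myh11, and their sum lay between 217 and 699 CPM in all mice. Of 7 cardiac genes, Myh6, Nppa, Myl7 and Mybpc3 were at the floor in every mouse and the sum of the list stayed between 7.00 and 12.5 CPM, where 7 is the floor. Tnnt2, the cardiac troponin T, had a correlation of 0.562, and the other cardiac genes above the floor, Tnni3 and Myl4, had -0.059 and -0.054. Adipocyte genes summed to 5348 CPM in control mouse 2 and 6404 CPM in control mouse 3 with clodronate, the lowest of the 22 mice, and to 12764 CPM in wheel mouse 2 with clodronate. Lymphocyte genes were high in wheel mice 3, 4 and 5 with clodronate (407 to 655 CPM). With PBS liposomes they were also high in control mouse 2 (219 CPM) and wheel mouse 3 (268 CPM). They were at 13.5 and 15.5 CPM in the mice numbered 2 of the clodronate groups, where the floor is 9.

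**Figure D5:**
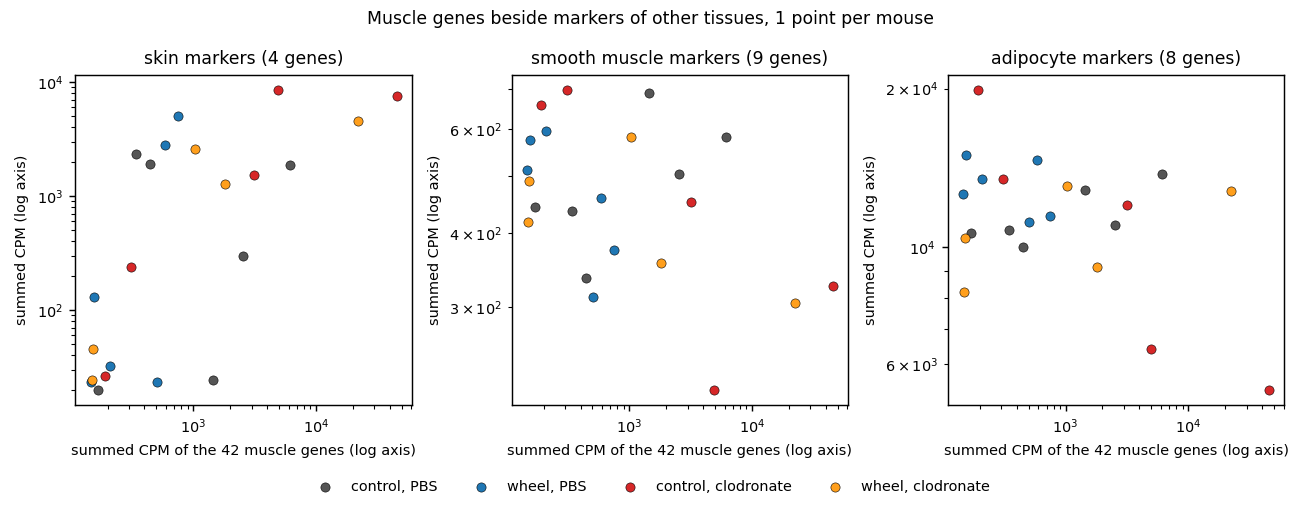
Summed CPM of 4 skin, 9 smooth muscle and 8 adipocyte genes (y axes, log scale) against the summed CPM of the 42 muscle genes (x axis, log scale), with a point for each of the 22 mice colored by group. Skin sums span 19.9 to 8591 CPM and tend to be high where muscle sums are high, with exceptions such as control mouse 5 with PBS liposomes at 24.5 CPM. Smooth muscle sums stay within 217 to 699 CPM.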

How the data were processed

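The authors sequenced QuantSeq 3′ FWD libraries of 22 mice and deposited, for each, the signal of every gene as CPM, any value under 1 being set to 1. The submitters' processing notes name STAR 2.5.3a and GRCm38, and the counting program and its use of strand are not given in the sources used here. The steps between deposited values gave the depth, and 100% of values above the floor were whole multiples of 1 read (within 0.05 reads). Because reads at the floor are lost, tests that need counts were not used. The total behind the CPM includes unmapped, multimapping and unassigned reads, in 4 rows that were left out, and 57.2% to 64.5% of reads fell in genes. Where a symbol had several rows (106 symbols), its row of highest mean was kept.

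Members were matched by symbol. The members and the gene lists were chosen with earlier results of these data known, so that counts and medians over them are descriptions. Testing covered the 15138 genes, all 42 members included, that passed the floor in 5 or more mice. It used limma 3.58.1 (R 4.3.3) on log2(CPM + 1), with 4 group means and a variance trend, 2-sided, with Benjamini-Hochberg adjustment over all genes. Fold changes on that scale understate those of low genes. The step was tested on simulated data. The labels do not say that mice with a shared number were paired. The p-values of limma weigh a group difference against the spread between these mice, with 1 estimate shared by the 4 groups. The groups differed in spread. For Acta1 the standard deviation of log2(CPM + 1) was 1.59 in wheel mice with PBS liposomes and 3.67 in control mice with clodronate. Isoform ratios used exact permutation tests that enumerated every split of the mice, with numpy 2.4.6. Wilson intervals came from scipy 1.17.1, and correlations, shares and figures used Python 3.11.15, pandas 2.3.3, scipy and matplotlib 3.10.9. Genes named were all members, members of the lists, and the 10 other genes most correlated with the mean of the members. Full values were given for 6 fast or shared and 6 slow genes. Copies were sought by matching the last 400 bases of GENCODE M21 transcripts with BLAST+ 2.17.0+. Of the 42 members, 21 overlap a gene on the opposite strand, such as Ube2c for Tnnc2 and Rabep2 for Atp2a1, and reads of such partners may not be separable.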

Additional observations from a re-analysis of the deposited data

Results flagged for a closer look

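Single mice stood far from the rest of their group in 19 of 172 tests (11.05%). Each test took a member, or the summed members, in 1 group (Dixon's gap divided by the range, on log2(CPM + 1)). The usual rate of about 1 in 20 is no yardstick here, because many values were tied at the floor. The tests share the same mice, and groups with every mouse at the floor were counted although they could not be flagged.

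Control mouse 2 with clodronate liposomes was far above its group for 7 genes, with gaps of 1.0 of the range for Myl2, 0.918 for Tnni1, 0.841 for Ampd1, 0.784 for Tnnt1, 0.743 for Myl3, 0.722 for Cacng1 and 0.721 for Tnnc1. These include 5 of the 7 slow isoforms, and each of the 7 genes had other mice of that group at the floor. Wheel mouse 2 with clodronate liposomes was far above its group for Csrp3 (0.98), Cacng1 (0.891), Smpx (0.731) and Actn2 (0.728). Control mouse 3 with PBS liposomes was far above its group for Csrp3 (1.0), Myh7 (0.674) and Myl3 (0.633). Among wheel mice with PBS liposomes, mouse 3 was far above the others for Tnni1 (1.0, at 1.95 CPM), Ampd1 (1.0, at 2.03 CPM), Myoz1 (0.929, at 6.91 CPM) and Actn3 (0.844, at 12.3 CPM), and mouse 2 for Mybpc1 (0.968, at 5.37 CPM). A gap of 1.0 arises where no other mouse in the group was above the floor. The summed level of the members was not far from the rest in any group on this scale.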

How the results depend on the processing

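No alternative brought a member past an adjusted p of 0.05. Over 114 refits for the 5 comparisons (pseudocounts 0.1 and 5, no filter, a mean of at least 5 CPM, upper-quartile scaling, scaling to genes other than the members, no variance trend, only the groups compared, the replicate block, leaving out each mouse, and, added after the data were seen, leaving out both mice numbered 2 of the clodronate groups), the number of members called stayed at 0, and so did that of 14 ratios of fast to slow isoforms in 24 alternatives. The test of ratios with both isoforms above the floor, or with both at 5 CPM or more, was not run, since no pair had 4 mice in both groups. At an unadjusted p under 0.05, 11 members were lower in wheel mice with PBS liposomes when only the 2 groups compared entered the fit, where 761 of 15138 genes passed, and 2 were higher with clodronate in wheel mice, where 1525 did.

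The same replicate numbers name different mice. Deviations of same-numbered mice from their group means had correlations of -0.252 to 0.114 with PBS liposomes (mean -0.075) and -0.120 to 0.517 with clodronate liposomes (mean 0.181), the highest being that of the 2 mice numbered 2. Since not every pair was above 0.1 and the labels give no pairing, the numbers were not taken to pair the mice. With the replicate block 0 members passed, 2 were lower in wheel mice with PBS liposomes (with 707 of 15138 genes) and 4 higher with clodronate in wheel mice (with 1578 genes) at an unadjusted p under 0.05, and the medians were -1.31, -0.88, 1.14 and 1.70 for wheel against control mice with PBS and with clodronate liposomes and for clodronate against PBS in control and in wheel mice.

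Member medians over the settings other than leaving out mice were -1.47 to -0.88, -0.96 to -0.75, 0.98 to 1.16 and 1.26 to 1.75 in that order. Leaving out mice gave -1.65 to -0.80, -1.88 to 0.08, 0.02 to 1.89 and 0.54 to 2.20. The second range crosses 0 and the third comes near it. The standard deviation between mice of the mean of the members, 2.02, was larger than the size of each median with all mice kept. These ranges are thus no evidence of stability. In control mice the median of all genes for clodronate against PBS was -0.10 as deposited and -0.01 after upper-quartile scaling. The floor of 13 to 20 reads limits the slow isoforms most.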

Other observations

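Control mouse 5 and control mouse 3 with clodronate liposomes and control mouse 3 with PBS liposomes had member sums of 3155, 4943 and 6105 CPM, and the Tnnt1 share of troponin T was at most 0.609%, 1.25% and 11.2% in them. In the same 3 mice Mybpc1 was 38.4%, 55.5% and 39.4% of the reads of Mybpc1 and Mybpc2, so that the order of the 3 mice by Tnnt1 was not their order by Mybpc1. Wheel mouse 1 with clodronate liposomes, at 1029 CPM in all, had 6 of the 7 slow isoforms at the floor and Mybpc1 at 48.8%. These are values of single libraries and no test was made of them.

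Satellite cell and newly formed fiber genes were near the floor even where mature fiber genes were abundant. The 8 genes of that list summed to 20.95 CPM in control mouse 2 with clodronate, against 45761 CPM for the members, where the floor is 8 and 12.3 CPM were Myf6. In wheel mouse 2 with clodronate liposomes the sum was 20.4 CPM, of which 6.72 CPM were the perinatal heavy chain Myh8.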
